A study of Mus musculus with 4 samples.

Results

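The electron transport chain and ATP synthase of mitochondria are built from subunits made by 2 genomes, and their genes were followed here in mouse medulloblastoma cells given a Smoothened inhibitor. Of the 55573 genes in the deposited table, 99 were protein-coding genes whose symbol follows the naming of subunits of complexes I to V. These are complex I (NADH dehydrogenase), complex II (succinate dehydrogenase), complex III (the cytochrome bc1 complex), complex IV (cytochrome c oxidase) and complex V (ATP synthase). The genes were chosen, and assigned to a complex, by symbol alone. Whether each gene encodes a subunit of that complex was not examined. The nucleus encodes 86 of them and the mitochondrial DNA 13. The 99 identifiers carry 98 symbols, because Atp5o stands for 2 of them. Atp5o here means ENSMUSG00000022956, and the other is given by its identifier.

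The cells, named SmoWT in the labels, are C57BL/6 medulloblastoma cells of the Sonic Hedgehog (SHH) subtype, from spontaneous tumours of Ptch1+/-, Trp53-/- mice, and grow as neurospheres. Both groups therefore carry the same Ptch1 and Trp53 alleles. One group had 0.1 µM GDC0449 (vismodegib, which blocks Smoothened, the protein that Ptch1 holds in check) for 24 h, and the other had the solvent DMSO for 24 h, with 2 RNA sequencing libraries in each. The labels name neither separate tumours nor separate cultures for the replicates, so p-values rest only on the spread between these libraries, which may be technical. For single genes that spread is in large part pooled over genes.

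Complexes I, III and IV pass electrons from NADH to oxygen and pump protons across the inner membrane, complex II feeds in electrons from succinate without pumping, and complex V uses the proton gradient to make ATP. Complex II is wholly nuclear, and the other complexes mix nuclear subunits with a few hydrophobic ones made inside the organelle. Mitochondrial genes are read as long transcripts from both strands of a circular molecule, called heavy and light, and are then cut into single RNAs. Cerebellar granule neuron progenitors, the cells that SHH medulloblastoma resembles, are known for high aerobic glycolysis under Hedgehog signalling.

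Reads in genes numbered from 16329721 (DMSO replicate 2) to 20790030 (GDC0449 replicate 1) per library. The Hedgehog targets Gli1, Hhip and Ptch1 were called lower with GDC0449, by log2 fold changes of -2.93, -2.56 and -0.96. Of 9 tested genes of granule progenitors and SHH tumour, 2 were called higher, Meis1 and Atoh1, and 2 lower, Gli1 and Ccnd2. Astrocyte markers summed to 343 and 337 CPM with GDC0449, against 216 and 231 CPM with DMSO, with Slc1a2, Sparcl1 and Aldoc of 7 tested called higher and Aqp4 at 0 reads. Of the other 4, Gja1 was lower past the adjusted p (-0.22), and Slc1a3 (-0.074), S100b (-0.60) and Gfap (0.69) were not past it. Oligodendrocyte markers summed to 83.1 and 84.5 CPM with GDC0449, against 65.9 and 66.3 CPM with DMSO, with Cnp of 4 tested called higher, Mbp higher past the adjusted p (0.41), Mog (-0.022) not past it, and Mag at 0 reads. Microglial markers summed to 2.09 and 2.89 CPM with GDC0449, against 4.48 and 6.71 CPM with DMSO, and Lyz2 and Tyrobp of 3 tested were called lower. Endothelial and pericyte markers summed to 0.949 and 1.42 CPM with GDC0449, against 1.12 and 2.05 CPM with DMSO, with Pecam1 called higher, Pdgfrb lower and Cdh5 at 0 reads. Fibroblast markers summed to 3.65 and 4.41 CPM with GDC0449, against 2.49 and 1.74 CPM with DMSO, with Col3a1 and Col6a1 of 4 tested called higher and Lum at 0 reads. Reads outside any gene made up 14.3% and 14.4% of reads with GDC0449, against 12.3% and 13.2% with DMSO. The part of these differences in the results that follow was not tested, and in such bulk samples fewer cells of a type and less RNA per cell cannot be told apart.

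Respiratory genes as a group moved little, and more of them were lower than higher after GDC0449. Levels are given as CPM, counts scaled by the library's reads in genes with TMM factors. Fold changes are log2 of GDC0449 over DMSO from edgeR's quasi-likelihood test, with Benjamini-Hochberg adjustment over all 15472 tested genes. A gene was called when its adjusted p was below 0.05 and its fold change over 1.5, and "past the adjusted p" means the first criterion alone. Of the 99 genes, 93 had enough reads to be tested, and 1 was called, Cox6a2, which was lower. Among all tested genes 12.5% were called, 8.68% higher and 3.85% lower. Past the adjusted p alone were 29 of the 93, with 6 higher and 23 lower. Among all tested genes that share was 36.1%, with 18.1% higher and 18.1% lower. With 5 CPM in 2 libraries, 17 of 88 respiratory genes were lower, against 2278 of 10953 of all genes, and without DMSO replicate 1 the counts were 4 of 94, against 871 of 16295, so a share of lower genes above the background is not a result about them. The count rests strongly on the number of libraries: it was 13 without GDC0449 replicate 1, 22 without GDC0449 replicate 2, 6 without DMSO replicate 1 and 7 without DMSO replicate 2, while the share of all genes was 22.9%, 25.1%, 10.9% and 8.46%.

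The median log2 fold change was -0.059 over the 93 genes, with 58 below 0, and 0.0068 over all tested genes. The 971 tested genes averaging 200 CPM or more had a median of -0.08. The 81 tested nuclear genes had a median of -0.017, which was 0.017 with upper-quartile scaling and 0.00846 without DMSO replicate 1, so its side of 0 is not fixed. The 12 tested mitochondrial genes had a median of -0.22, all 12 below 0. Past the adjusted p were 23 of 81 nuclear genes, 6 higher and 17 lower, and 6 of 12 mitochondrial genes, all lower. The groups did not overlap in 39 of the 81 nuclear genes, 22 lower and 17 higher, and in 8 of the 12 mitochondrial genes. That was so for 65.8% of all tested genes, with 32.2% lower.

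**Figure D1:**
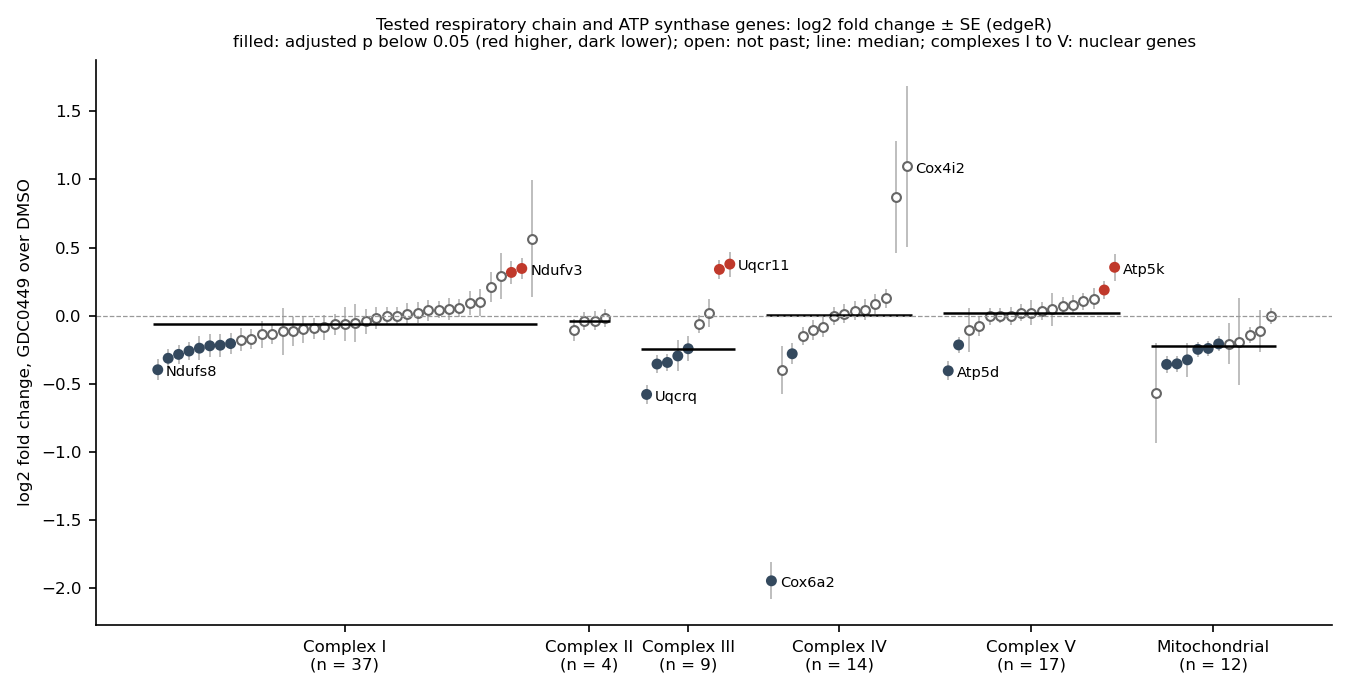
Log2 fold change of GDC0449 over DMSO with its standard error (vertical axis) for the 93 tested genes, in order within each nuclear complex and for the mitochondrial genes. Filled points are past the adjusted p and black lines are medians. Cox6a2 at -1.95 stands far below the rest, complex III holds points on both sides, and no mitochondrial point lies above 0.

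The one called gene was Cox6a2, the heart and skeletal muscle isoform of cytochrome c oxidase subunit 6A (ENSMUSG00000030785, GRCm38 chr7:128205435-128206387, minus strand). It had 5.31 and 6.68 CPM in the GDC0449 libraries, against 25.2 and 20.7 CPM in the DMSO libraries. The reads behind these levels numbered 112 and 141 with GDC0449, against 496 and 334 with DMSO. Both GDC0449 libraries lay well below both DMSO libraries. The log2 fold change was -1.95 ± 0.14 (SE), adjusted p 1.03e-17, a level 3.85-fold lower, and it was called under all 13 alternatives, leaving out any library included.

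Cox6a1, the isoform of the same subunit made in most tissues, had 166 and 150.3 CPM in the GDC0449 libraries, against 188 and 151 CPM in the DMSO libraries. Its groups overlapped, with a log2 fold change of -0.11 ± 0.072 (SE) and adjusted p 0.263. On the deposited FPKM scale (fragments scaled by gene length and depth), which allows levels of different genes to be compared, Cox6a2 made up 2.51% and 3.40% of Cox6a1 plus Cox6a2 with GDC0449, against 9.78% and 9.79% with DMSO. The log2 ratio of Cox6a2 to Cox6a1 reads was -4.96 and -4.49 with GDC0449, against -2.90 and -2.87 with DMSO. That difference of -1.84 had an exact two-sided permutation p of 0.333, which is the smallest that 2 libraries against 2 allow.

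Muscle genes were near 0: none of 6 muscle markers had enough reads to be tested, and together they gave 0.522 and 0.426 CPM with GDC0449, against 0.458 and 0.248 CPM with DMSO. One other gene shares sequence with Cox6a2: exons of Itgad, an integrin of myeloid cells on the opposite strand, cover 10.3% of its exonic bases. Itgad itself had 2 and 0 reads with GDC0449, against 10 and 13 reads with DMSO. The strand setting of the counting is not given in the sources used here, so reads in the shared bases cannot be told apart.

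**Figure D2:**
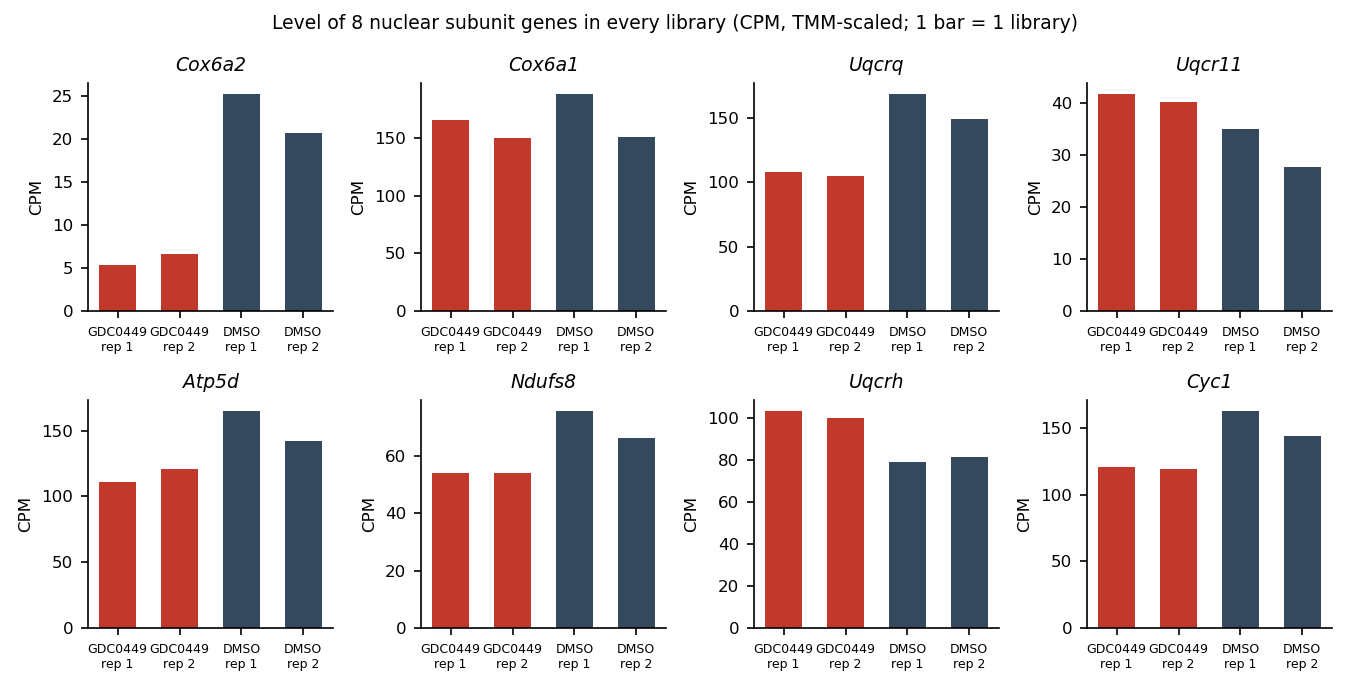
Level in CPM (vertical axis, from 0) of 8 nuclear genes in each of the 4 libraries, with GDC0449 in red and DMSO in dark blue and 1 bar for each library. Cox6a2 is at 5.31 and 6.68 CPM with GDC0449 and 25.2 and 20.7 CPM with DMSO, its partner Cox6a1 overlaps between groups, and Uqcr11 and Uqcrh run against Uqcrq and Cyc1.

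Other isoforms that are typical of certain tissues or conditions were scarce. Cox4i2, the lung and low-oxygen isoform of subunit 4, had 0.522 and 0.569 CPM with GDC0449, against 0.305 and 0.186 CPM with DMSO, and Cox7a1, the heart and muscle isoform of subunit 7A, had 1.47 and 0.995 CPM with GDC0449, against 0.865 and 0.435 CPM with DMSO. Ndufa4l2, a paralogue of Ndufa4 that hypoxia induces, had 1.28 and 0.711 CPM with GDC0449, against 0.764 and 0.559 CPM with DMSO. All 3 were higher in mean, by 1.10, 0.87 and 0.56 on the log2 scale, and none was past the adjusted p (0.149, 0.0951 and 0.327). Cox6b2 and Cox8b had too few reads for a test, and Cox7b2 and Cox8c had 0 reads in every library, where 3 reads would make 0.144 to 0.184 CPM.

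Of the 18 nuclear genes of complex IV 14 were tested, with 2 past the adjusted p, both lower, and a median of 0.0061. The median was 0.036 without DMSO replicate 1 and -0.060 without DMSO replicate 2, so its side of 0 is not fixed. The count of 2 was 1 without GDC0449 replicate 1, 3 without GDC0449 replicate 2, 1 without DMSO replicate 1 and 1 without DMSO replicate 2. Cox4i1, the common isoform of subunit 4, had 130.4 and 124 CPM with GDC0449, against 132 and 122 CPM with DMSO, a log2 fold change of -0.0023 ± 0.067 (SE). Cox5b, a matrix-side subunit that binds zinc, had 142 and 196 CPM with GDC0449, against 213 and 197 CPM with DMSO. The difference came from GDC0449 replicate 1, since GDC0449 replicate 2 lay within 1 CPM of DMSO replicate 2: the log2 fold change was -0.28 ± 0.078 (SE), adjusted p 0.0035, and -0.067 without GDC0449 replicate 1. Cox5a, its partner on the matrix side, had 5.69 and 13.4 CPM with GDC0449, against 13.8 and 11.1 CPM with DMSO, with GDC0449 replicate 2 inside the DMSO range. It was not past the adjusted p (-0.40, 0.0744). Its log2 fold change was 0.087 without GDC0449 replicate 1, and -1.14 and called without GDC0449 replicate 2. Cox5b was past the adjusted p only with all libraries or without GDC0449 replicate 2 among the fits that leave out a library.

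Complex III changed in both directions within one enzyme. Of its 9 nuclear genes, all tested, 5 were lower and 2 higher past the adjusted p, a share of 77.8%, against 36.1% of all tested genes. With 9 genes this share is a description and was not tested. The median was -0.24, and -0.15 without GDC0449 replicate 1. The count of 7 was 5 without GDC0449 replicate 1, 6 without GDC0449 replicate 2, 3 without DMSO replicate 1 and 2 without DMSO replicate 2. Uqcrq, which encodes a small subunit bound to cytochrome b (ENSMUSG00000044894, chr11:53427922-53430831, minus strand), had 108 and 105 CPM in the GDC0449 libraries, against 169 and 149 CPM in the DMSO libraries. The groups stood far apart. Its log2 fold change was -0.58 ± 0.067 (SE), adjusted p 4.48e-10, just under 1.5-fold, and it was past the adjusted p under all 13 alternatives. It crossed 1.5-fold with no filter, with DESeq2, without GDC0449 replicate 1 and without DMSO replicate 2.

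Both nuclear subunits that carry redox groups were lower. Cyc1, cytochrome c1, had 121 and 119 CPM with GDC0449, against 162 and 144 CPM with DMSO, a log2 fold change of -0.35 ± 0.067 (SE) and adjusted p 2.32e-05. The Rieske iron-sulfur protein, Uqcrfs1, had 27.7 and 31.4 CPM with GDC0449, against 35.4 and 34.5 CPM with DMSO, a log2 fold change of -0.24 ± 0.091 (SE) and adjusted p 0.0312. In both genes the groups did not overlap. Cyc1 was not past the adjusted p without DMSO replicate 1, and Uqcrfs1 without GDC0449 replicate 1, DMSO replicate 1 or DMSO replicate 2.

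Of the 2 core proteins on the matrix side, Uqcrc2 was lower and Uqcrc1 was not past the adjusted p, and their difference was not tested. Uqcrc2 had 142 and 144 CPM with GDC0449, against 176 and 187 CPM with DMSO, with no overlap, at -0.34, adjusted p 1.92e-05. Uqcrc1 had 202 and 187 CPM with GDC0449, against 216 and 189 CPM with DMSO, with overlap, at -0.059, adjusted p 0.52. Uqcrb, another small subunit near the quinone site, was lower at -0.30, adjusted p 0.0368. Uqcrc2 was not past the adjusted p without DMSO replicate 2, and Uqcrb was past it in none of the fits that left out a library.

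Of the small subunits, Uqcr11 and Uqcrh rose. Uqcrh, the acidic hinge protein beside cytochrome c1, had 103 and 100.1 CPM with GDC0449, against 79.4 and 81.5 CPM with DMSO, a log2 fold change of 0.34 ± 0.069 (SE) and adjusted p 7.85e-05. Uqcr11, a small supernumerary subunit, had 41.8 and 40.3 CPM with GDC0449, against 35.1 and 27.7 CPM with DMSO, a log2 fold change of 0.38 ± 0.092 (SE) and adjusted p 0.000799. Every GDC0449 library was above every DMSO library in both. Uqcr10, a further small subunit, had 26.3 and 21.9 CPM with GDC0449, against 24.8 and 22.5 CPM with DMSO and overlapped. Uqcrh was not past the adjusted p without DMSO replicate 1 or without DMSO replicate 2, and Uqcr11 without DMSO replicate 2.

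The ratio of Uqcrq to Uqcr11 reads, on the log2 scale, was 1.37 and 1.38 with GDC0449, against 2.26 and 2.43 with DMSO. The difference of -0.97 does not depend on scaling between libraries, and its exact two-sided permutation p was 0.333, the smallest possible. The pair was chosen after its values were seen. Summed over the 9 nuclear genes, complex III had 788 and 764 CPM with GDC0449, against 915 and 856 CPM with DMSO.

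**Figure D3:**
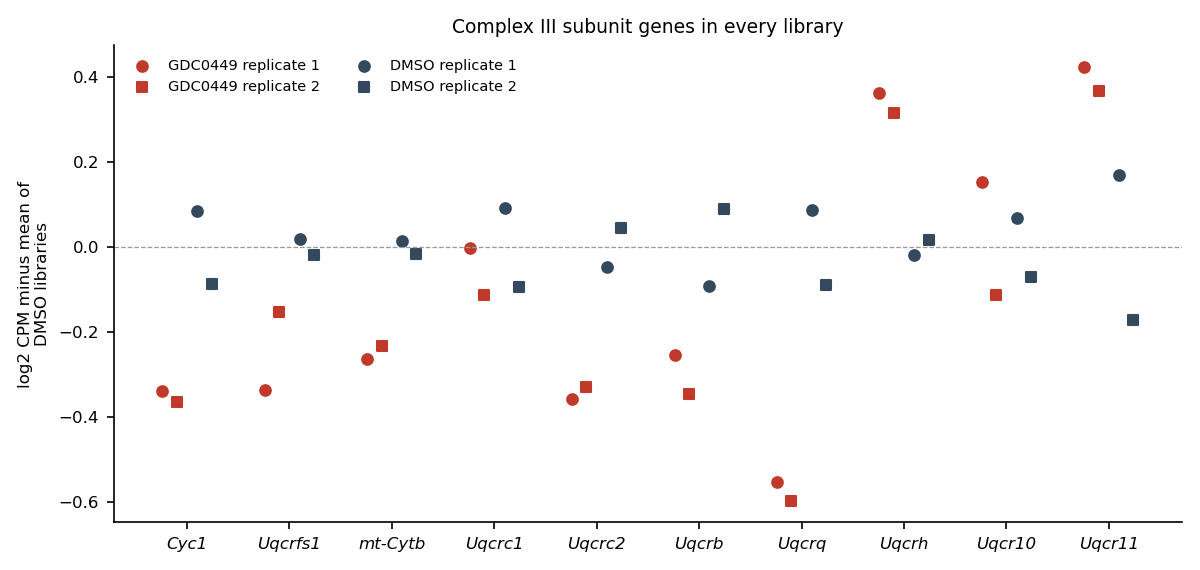
Log2 CPM of 10 complex III genes in each library, minus the mean of the DMSO libraries (vertical axis). Red symbols are GDC0449, dark symbols DMSO, circles replicate 1 and squares replicate 2. Uqcrq lies lowest, Uqcrh and Uqcr11 lie above the DMSO libraries, and the mitochondrial mt-Cytb falls with Cyc1 and Uqcrc2.

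Complex I, the largest enzyme of the chain, had 37 nuclear genes by symbol, Ndufa4 and Ndufa4l2 among them, all tested. Past the adjusted p 8 were lower and 2 higher, a share of 27.0%, below that of all genes. The median was -0.060, and between -0.11 without DMSO replicate 2 and -0.022 without DMSO replicate 1. The count of 10 was 4 without GDC0449 replicate 1, 5 without GDC0449 replicate 2, 1 without DMSO replicate 1 and 2 without DMSO replicate 2. Of its 7 conserved core genes 2 were lower, Ndufs8 and Ndufv1. By module, 1 of 10 genes of the NADH-oxidising arm (N module) was higher and 3 were lower, and 3 of 6 genes of the quinone-reducing arm (Q module) were lower.

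Ndufs8, which holds iron-sulfur clusters next to the quinone site, had the lowest log2 fold change of the complex. It had 53.8 and 54.0 CPM in the GDC0449 libraries, against 75.5 and 66.2 CPM in the DMSO libraries, a log2 fold change of -0.40 ± 0.077 (SE) and adjusted p 3.47e-05. Ndufv1, which binds the flavin that takes electrons from NADH, had 123 and 123 CPM with GDC0449, against 153 and 140.4 CPM with DMSO, at -0.26, adjusted p 0.00136. Both genes kept their groups apart, and both lost the adjusted p without DMSO replicate 1. Ndufs1, the largest core subunit of the same arm, had 168 and 162 CPM with GDC0449, against 163 and 157 CPM with DMSO and did not separate the groups (0.044, adjusted p 0.634).

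The other 6 lower genes are accessory subunits, named after their values were seen. They were Ndufa10 (-0.31), Ndufa12 (-0.28), Ndufs5 (-0.24), Ndufa5 (-0.22), Ndufa6 (-0.22) and Ndufa9 (-0.20) on the log2 scale, with adjusted p between 0.000155 and 0.0375. The higher genes were Ndufv3, a small partner of the flavin subunit, at 73.0 and 71.5 CPM with GDC0449, against 59.7 and 53.7 CPM with DMSO, and Ndufb8, of the membrane arm, at 47.6 and 44.5 CPM with GDC0449, against 40.1 and 33.5 CPM with DMSO. Their log2 fold changes were 0.35 and 0.32 with adjusted p 0.000202 and 0.00279, and neither group pair overlapped. Of the 6 accessory genes, 4 (Ndufs5, Ndufa5, Ndufa6 and Ndufa9) were past the adjusted p in no fit that left out a library. Ndufa10 passed only in the fit without GDC0449 replicate 2, and Ndufa12 only in that without GDC0449 replicate 1. Of the higher genes, Ndufb8 passed only without GDC0449 replicate 2, and Ndufv3 was lost without DMSO replicate 2.

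None of the 4 genes of complex II was past the adjusted p, and their log2 fold changes ran between -0.10 and -0.017. Sdha, the flavoprotein that oxidises succinate, had 152 and 149.8 CPM with GDC0449, against 158 and 147 CPM with DMSO, and Sdhb, the iron-sulfur subunit, had 92.5 and 91.4 CPM with GDC0449, against 95.1 and 93.8 CPM with DMSO. The groups overlapped in Sdha, and in Sdhb both GDC0449 libraries lay slightly below both DMSO libraries. Sdhd, a membrane anchor, was lowest at -0.10 ± 0.082 (SE). No complex II gene had an unadjusted p below 0.05.

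Of the 17 tested nuclear genes of ATP synthase 2 were lower and 2 higher past the adjusted p, with a median of 0.024. In the catalytic F1 head, Atp5b, the subunit that makes ATP, had 1382 and 1436 CPM with GDC0449, against 1678 and 1591 CPM with DMSO, a log2 fold change of -0.21 ± 0.056 (SE) and adjusted p 0.00199. Its partner Atp5a1 had 1008 and 989 CPM with GDC0449, against 1027 and 971 CPM with DMSO, a log2 fold change of -0.00031 and adjusted p 0.997. The groups stood apart in Atp5b and overlapped in Atp5a1. Atp5d, the delta subunit of the rotating stalk, was lowest, with 111 and 121 CPM with GDC0449, against 165 and 142 CPM with DMSO, at -0.40, adjusted p 4.09e-06. Atp5b lost the adjusted p in 3 of 4 fits that left out a library, those without GDC0449 replicate 1, DMSO replicate 1 and DMSO replicate 2, and Atp5d without DMSO replicate 1.

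In the membrane part, Atp5g1, Atp5g2 and Atp5g3 encode the same c subunit of the proton-driven ring with different targeting sequences. By counts none of them was past the adjusted p. Atp5g2 had 332 and 308 CPM with GDC0449, against 308 and 286 CPM with DMSO, Atp5g3 had 146 and 146 CPM with GDC0449, against 137 and 141 CPM with DMSO and Atp5g1 had 112 and 99.8 CPM with GDC0449, against 119 and 105 CPM with DMSO. None of 4 tested genes of the peripheral stalk was past the adjusted p either. The deposited FPKM differed from the counts for Atp5g1, at 28.4 and 29.4 FPKM with GDC0449, against 42.4 and 37.2 FPKM with DMSO. There limma on log2(FPKM + 1) gave -0.45, adjusted p 0.025, and Atp5g2 and Atp5g3 were not past the adjusted p. The higher genes were Atp5k, subunit e, which helps the enzyme form dimers, with a log2 fold change of 0.36, adjusted p 0.00295, and Atp5mpl, a small associated protein, at 0.19, adjusted p 0.0239. Atp5k had 29.7 and 27.8 CPM with GDC0449, against 23.3 and 21.5 CPM with DMSO, with no overlap. Atp5k lost the adjusted p in 3 of 4 fits that left out a library and Atp5mpl in all 4, and the count for the complex was 4 with all libraries, 1 without GDC0449 replicate 1, 0 without DMSO replicate 1 and 1 without DMSO replicate 2. Atpif1, the inhibitor of ATP synthase, was not past the adjusted p (0.24, adjusted p 0.118).

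The mitochondrial genes need a look at their sequences first, because a stretch of mouse chromosome 1 carries a copy of part of the mitochondrial DNA. GENCODE M21 names the copies as genes of their own, between 24611535 and 24616197 on the minus strand of chromosome 1 in GRCm38. Over the annotated copy, mt-Co2, mt-Atp6, mt-Co3, mt-Nd4l and mt-Nd4 were identical to it, mt-Nd3 differed at 1 of 345 bases, and mt-Co1 differed at 6 of 492 bases. Windows of 3 of these pairs are shown, for mt-Co2 and mt-Nd3, where the deposited measures disagree, and for mt-Co1, where they do not, and capitals mark the bases that differ. The 6 differing bases of mt-Co1 all lie at the start of its window, where the annotated Gm29216 begins, and the rest of the aligned bases were identical. Whether the bases at that edge belong to the copied stretch was not examined. The mitochondrial windows are on the plus strand, at chrM:6381-6500 in mt-Co1, chrM:7013-7072 in mt-Co2 and chrM:9459-9518 in mt-Nd3. The copies are on the minus strand, at chr1:24616078-24616197 in Gm29216, chr1:24615506-24615565 in Gm28661 and chr1:24613060-24613119 in Gm28438.
mt-Co1: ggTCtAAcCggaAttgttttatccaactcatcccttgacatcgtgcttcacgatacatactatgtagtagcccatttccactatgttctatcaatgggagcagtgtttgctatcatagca
Gm29216: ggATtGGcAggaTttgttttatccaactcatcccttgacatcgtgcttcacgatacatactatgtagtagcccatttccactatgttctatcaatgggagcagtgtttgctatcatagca
mt-Co2: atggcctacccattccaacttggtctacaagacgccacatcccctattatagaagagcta
Gm28661: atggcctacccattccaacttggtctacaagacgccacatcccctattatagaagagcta
mt-Nd3: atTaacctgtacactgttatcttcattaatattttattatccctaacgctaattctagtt
Gm28438: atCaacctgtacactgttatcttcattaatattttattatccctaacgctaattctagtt

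The deposited counts and the deposited FPKM disagreed over a row of mitochondrial genes, not over every copied gene. Between mt-Co1 and mt-Nd4 lie 6 genes in a row, mt-Co2, mt-Atp8, mt-Atp6, mt-Co3, mt-Nd3 and mt-Nd4l, and in these the FPKM was 70.1 to 1608 times the RPKM (reads scaled by gene length and depth) computed from the counts. In mt-Co2, for example, 276 and 330 reads with GDC0449, against 302 and 337 reads with DMSO, stood beside 1507 and 1581 FPKM with GDC0449, against 1776 and 1787 FPKM with DMSO. In the 7 mitochondrial genes outside that row the same ratio did not pass 10, with 1.14 for mt-Nd4 and 0.746 for mt-Co1, both copied in part, and 9 of the 92 respiratory genes with an FPKM of at least 1 exceeded it in all. Of mt-Co2 100% of 50-base words occur in another annotated transcript, of mt-Co1 51.1% and of mt-Atp8 0%. The 43 bases of mt-Atp8 that aligned to the annotated copy Gm10925 were identical to it. Chromosome 1 bases outside annotated transcripts were not compared, so the 0% does not mean that mt-Atp8 has no copy. Reads with more than 1 alignment stand in the table as a class of their own, in no gene, and made up 10.4% to 10.7% of reads. What made the FPKM of these genes is not given in the sources used here, and the cause of the gap was not tested.

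**Figure D4:**
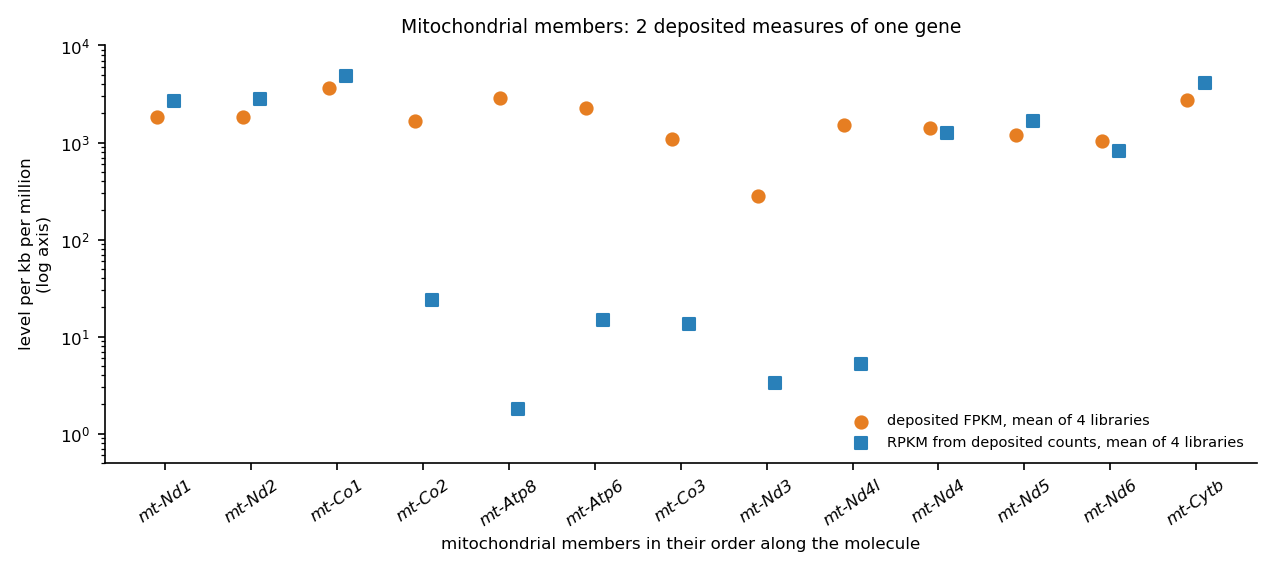
Deposited FPKM (orange circles) and RPKM from the deposited counts (blue squares), each the mean of 4 libraries, for the 13 mitochondrial genes in their order along the molecule, on a log axis. The 6 genes between mt-Co1 and mt-Nd4 have 70.1 to 1608 times more FPKM than RPKM, and the flanking genes lie close together.

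The 7 mitochondrial genes with at least 1000 reads in every library carry the comparison by counts. Of the complex I genes, mt-Nd5 had 2531 and 2782 CPM in the GDC0449 libraries, against 3333 and 3455 CPM in the DMSO libraries, a log2 fold change of -0.35 ± 0.057 (SE) and adjusted p 1.31e-06. Its groups stood apart, and so did those of mt-Nd4, which had 1497 and 1646 CPM with GDC0449, against 1831 and 1882 CPM with DMSO, at -0.24, adjusted p 0.000657. The sole protein gene of the light strand, mt-Nd6, had 364 and 380.0 CPM with GDC0449, against 459 and 494 CPM with DMSO, at -0.36 ± 0.059 (SE) and adjusted p 2.36e-06. Without a stated strand setting, reads of mt-Nd6 and of the opposite strand there cannot be told apart.

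At the other end, mt-Nd2 had 2818 and 3019 CPM with GDC0449, against 2899 and 2949 CPM with DMSO and overlapped, with a log2 fold change of -0.0027 ± 0.056 (SE) and adjusted p 0.978. Next to it, mt-Nd1 had 2339.6 and 2569 CPM with GDC0449, against 2589 and 2815 CPM with DMSO, at -0.14, adjusted p 0.056, short of the threshold. In complex III, mt-Cytb, cytochrome b, had 4214 and 4301 CPM with GDC0449, against 5104 and 5000.0 CPM with DMSO, at -0.25, adjusted p 0.000304. In complex IV, mt-Co1, the catalytic subunit, had 6875 and 7174 CPM with GDC0449, against 7972 and 8243 CPM with DMSO, at -0.21, adjusted p 0.00246. Both GDC0449 libraries were below both DMSO libraries in mt-Cytb and mt-Co1. On leaving out 1 library, mt-Nd6 lost the adjusted p without DMSO replicate 2, mt-Nd5 without DMSO replicate 1 or DMSO replicate 2, mt-Cytb without GDC0449 replicate 1 or DMSO replicate 1, mt-Nd4 in all but the fit without GDC0449 replicate 2, and mt-Co1 in all 4.

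The 6 genes between mt-Co1 and mt-Nd4 had few counts. Past the adjusted p was mt-Co2 at -0.32, adjusted p 0.0368, although its groups overlapped at 13.1 and 15.6 CPM with GDC0449, against 15.4 and 20.9 CPM with DMSO. It passed in 5 of 13 alternatives and, of the fits that left out a library, only in that without GDC0449 replicate 2, with log2 fold changes between -0.55 and -0.11. The log2 fold changes of mt-Co3, mt-Atp6, mt-Nd3 and mt-Nd4l were -0.20, -0.11, -0.56 and -0.19, none past the adjusted p, and mt-Atp8 was not tested. In FPKM, 12 of the 13 mitochondrial genes had a lower mean with GDC0449 and mt-Nd2 a higher one. The FPKM groups did not overlap in 11 of 13, but the matching share over all genes was not computed for FPKM. With limma on log2(FPKM + 1), 2 of the 13 were past the adjusted p, both lower, against 1016 lower of 13084 of all genes. The count of 6 mitochondrial genes past the adjusted p was 2 without GDC0449 replicate 1, 5 without GDC0449 replicate 2, 1 without DMSO replicate 1 and 1 without DMSO replicate 2.

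Set in their order along the heavy strand, the genes showed a graded difference. The ribosomal RNAs come first, and mt-Rnr1, the small one, had 69.6 and 73.2 CPM with GDC0449, against 47.5 and 55.6 CPM with DMSO, a log2 fold change of 0.47 ± 0.078 (SE) and adjusted p 2.17e-06, lost without DMSO replicate 1. The large one, mt-Rnr2, had 195 and 203 CPM with GDC0449, against 168 and 190.3 CPM with DMSO, at 0.16, adjusted p 0.0552. From there the log2 fold change ran through -0.14 for mt-Nd1, -0.0027 for mt-Nd2, -0.21 for mt-Co1, -0.24 for mt-Nd4 and -0.35 for mt-Nd5 to -0.25 for mt-Cytb. The log2 fold changes were thus highest at the start and lowest farther along, with mt-Nd1 and mt-Cytb out of order. Over these 8 genes, those with at least 500 reads in every library, Spearman's rho between order and log2 fold change was -0.95, and over the 6 protein-coding ones -0.89. This floor is lower than the 1000 reads of the comparison by counts. Its lowest library at 896 reads, mt-Rnr1 enters only through the lower floor.

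Leaving out each library in turn gave rho between -0.95 and -0.90 over the 8 genes, and between -0.89 and -0.77 over the 6 protein-coding ones. The deposited FPKM of all 14 heavy-strand genes, the copied ones included, gave -0.85, and that of the 12 protein-coding ones -0.76. Genes on 1 transcript are not independent and share the libraries, so rho is a description, and the order was examined after the values were seen. A ratio within each library needs no scaling: the log2 ratio of mt-Nd5 to mt-Nd2 reads was -0.15 and -0.12 with GDC0449, against 0.20 and 0.23 with DMSO. The difference of -0.35 had an exact two-sided permutation p of 0.333, the smallest possible. This pair, too, was picked after the values were seen. Its genes are the lowest and highest of the heavy-strand protein-coding genes with at least 500 reads in every library, so the ratio is no separate support for the order. How RNA was selected before sequencing is not given in the sources used here, and its part was not tested.

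**Figure D5:**
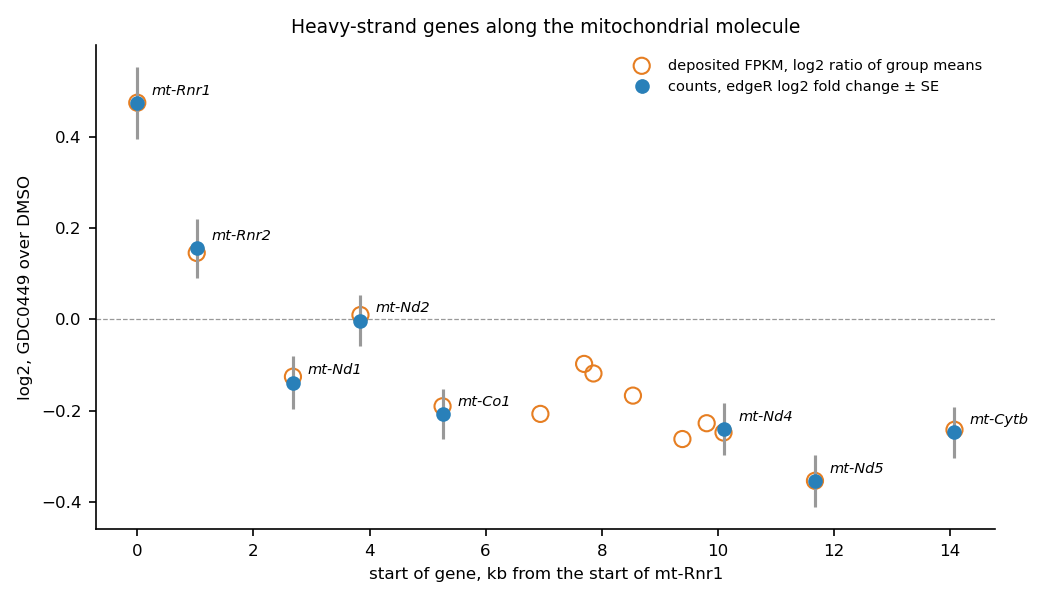
Log2 of GDC0449 over DMSO (vertical axis) against the start of each heavy-strand gene in kb from the start of mt-Rnr1 (horizontal axis), from counts with SE (filled blue, 8 genes) and as the ratio of mean deposited FPKM (open orange, 14 genes). Values run between 0.47 at mt-Rnr1 and -0.35 at mt-Nd5, and both measures give nearly the same value where both exist.

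Set against each other, the sums of the 2 genomes differed little. The log2 ratio of summed mitochondrial to summed nuclear CPM was 1.28 and 1.37 with GDC0449, against 1.39 and 1.51 with DMSO, and although the groups did not overlap they nearly touched. The difference was -0.12, with an exact two-sided permutation p of 0.333, the smallest possible. On leaving out 1 library it was -0.082 without GDC0449 replicate 1, -0.17 without GDC0449 replicate 2, -0.19 without DMSO replicate 1 and -0.063 without DMSO replicate 2. With deposited FPKM it was -0.12, without the mitochondrial ND genes -0.14, and with the mean of logs in place of the log of sums -0.14 with p 0.667. Mitochondrial genes took 2.10% and 2.23% of reads in genes with GDC0449, against 2.37% and 2.45% with DMSO, and nuclear ones took 0.861% and 0.865% with GDC0449, against 0.903% and 0.861% with DMSO. By counts, the mitochondrial sums and shares hold few reads of the genes between mt-Co1 and mt-Nd4.

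Within complexes I and IV, sums of the mitochondrial genes stood farther apart than those of the nuclear genes. The nuclear genes of complex I summed to 2139 and 2113 CPM with GDC0449, against 2313 and 2164 CPM with DMSO. Its mitochondrial genes summed to 9552 and 10399 CPM with GDC0449, against 11114 and 11597 CPM with DMSO. For complex IV the nuclear sums were 1094 and 1137 CPM with GDC0449, against 1229 and 1133 CPM with DMSO, and overlapped. The mitochondrial sums of complex IV, by counts nearly all mt-Co1, were 6897 and 7200 CPM with GDC0449, against 7997 and 8277 CPM with DMSO. The counts hold few reads of mt-Co2 and mt-Co3. In deposited FPKM these sums were 5835 and 6111 with GDC0449, against 6722 and 6910 with DMSO. The mean FPKM of mt-Co1 alone was 3406 with GDC0449 and 3886 with DMSO. Nuclear complex V sums were 4086 and 4091 CPM with GDC0449, against 4388 and 4196 CPM with DMSO. These sums were not tested.

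Among genes that build and serve the chain, more were lower than higher past the adjusted p. Of 14 complex I assembly factors 4 were lower past the adjusted p and none higher, with Ndufaf6, a factor needed early in complex I assembly, called at -0.63, adjusted p 0.000113. It had 9.11 and 9.48 CPM with GDC0449, against 14.8 and 13.9 CPM with DMSO, with no overlap, and was not past the adjusted p without DMSO replicate 1. Of 20 tested complex IV assembly factors 5 were lower and 1 higher. The called one, Cox20, a chaperone of the mitochondrial Co2 protein, had 12 and 12 reads with GDC0449, against 25 and 22 reads with DMSO, at -1.20, adjusted p 0.0165, and its FPKM fit had the opposite sign at 0.18. Cox20 was past the adjusted p in no fit that left out a library. Of the 6, 4 and 4 assembly factors of complexes III, II and V, 1 was lower, Bcs1l, which inserts the Rieske protein, at -0.24, adjusted p 0.0301, and in no fit that left out a library. The smallest p of the other 2 lists belonged to Sdhaf4 of complex II, at 0.52, adjusted p 0.0808, and Atpaf1 of complex V, at -0.23, adjusted p 0.0538, neither past the threshold.

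Of 15 electron carriers and quinone-linked enzymes 5 were lower and none higher, led by Cycs, cytochrome c itself, at 97.9 and 98.2 CPM in the GDC0449 libraries, against 137 and 145 CPM in the DMSO libraries. Its log2 fold change was -0.53 ± 0.067 (SE), adjusted p 4.08e-09, short of 1.5-fold. In the tricarboxylic acid cycle 2 of 13 genes were lower, with Dld, the shared dihydrolipoamide dehydrogenase, at -0.38, adjusted p 9.75e-06, lost without DMSO replicate 2. Of 12 outer membrane and import genes 8 were lower and none higher. Hspa9, the matrix chaperone mortalin that pulls proteins in, was called lower, with 616 and 658 CPM in the GDC0449 libraries, against 1197 and 1197 CPM in the DMSO libraries, a log2 fold change of -0.91 ± 0.058 (SE) and adjusted p 2.01e-19.

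Of 15 tested genes for mitochondrial DNA upkeep and transcription 8 were lower and none higher. Lrpprc, which stabilises mitochondrial mRNAs, had 118 and 117 CPM with GDC0449, against 152 and 154 CPM with DMSO, at -0.38, adjusted p 3.84e-06. Tfam, the packaging and transcription factor of mitochondrial DNA, was lower at -0.32, adjusted p 0.000454, while Polrmt, the RNA polymerase, was not past the adjusted p (-0.10, adjusted p 0.339), and both were picked after their values were seen. Tfam was not past the adjusted p without DMSO replicate 2. Among 8 tested regulators of mitochondrial genes, 2 were higher and 2 lower past the adjusted p, and the lowest log2 fold change was -0.49. Myc was called higher, with 31.3 and 26.8 CPM with GDC0449, against 18.7 and 19.2 CPM with DMSO, at 0.62, adjusted p 1.95e-06. Myc was not past the adjusted p without DMSO replicate 1 or without DMSO replicate 2, and fell short of 1.5-fold without GDC0449 replicate 1. With limma on log2(FPKM + 1), 1 of 16 upkeep genes and 2 of 12 import genes were lower, against 1016 of 13084 of all genes. An upkeep share above the background thus did not hold in every fit and is not a result about these genes. In the main fit, against the background of 18.1% lower, shares of 8 in 15 and 8 in 12 were above it. Those of complex I and IV assembly factors, 4 in 14 and 5 in 20, were nearer to it. These counts of lower genes change with 1 library: import was 5, 7, 4 and 3 and upkeep 4, 7, 2 and 1 without GDC0449 replicate 1, GDC0449 replicate 2, DMSO replicate 1 and DMSO replicate 2, and complex I assembly 3, 3, 0 and 1. In the same order, electron carriers were 3, 2, 1 and 1 and complex IV assembly factors 2, 2, 0 and 0.

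The promoters of the nuclear genes were read for 4 motifs, on both strands, in windows of 250 bases before to 50 bases after the gene start (RefSeq, GRCm38.p6). The motifs were GCGCA and GCGC parted by any base for NRF1, CCGGAAGT for the ETS family with GABPA, AA and ATGGC parted by any base and followed by GGC for YY1, and GACCACCCA for the GLI factors of Hedgehog signalling. NRF1, GABPA and YY1 are known regulators of respiratory genes. A window was found for 66 of the 85 nuclear symbols, and Cox6a2, Uqcrq and Cyc1 were not among them. The NRF1 letters occurred in 17 of 66, or 25.8%, against 11.3% of 10647 tested genes with a window. ETS letters occurred in 5 of 66, or 7.58%, against 8.97%, YY1 letters in 4, or 6.06%, against 2.71%, and GLI letters in 0, against 0.254%. Among members with a window, ETS letters were in 2 of 5 that rose, Uqcr11 and Uqcrh, and in 0 of 12 that were lower, and NRF1 letters in 1 of 5 and 3 of 12. These are matches of letters, not sites. The 3 windows shown, 5′ to 3′ on the minus strand, which holds all 3 genes, with motif matches in capitals, are those of the risen complex III genes, at chr10:80406772-80407071 and chr4:116075021-116075320, and of Cox6a1, with 2 NRF1 matches, at chr5:115348909-115349208.
Uqcr11: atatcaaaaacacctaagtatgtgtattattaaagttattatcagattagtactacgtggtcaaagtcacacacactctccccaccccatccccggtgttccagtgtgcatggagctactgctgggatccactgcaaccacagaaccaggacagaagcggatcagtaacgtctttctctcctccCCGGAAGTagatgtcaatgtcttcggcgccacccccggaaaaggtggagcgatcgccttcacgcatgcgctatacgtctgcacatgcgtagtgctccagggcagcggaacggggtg
Uqcrh: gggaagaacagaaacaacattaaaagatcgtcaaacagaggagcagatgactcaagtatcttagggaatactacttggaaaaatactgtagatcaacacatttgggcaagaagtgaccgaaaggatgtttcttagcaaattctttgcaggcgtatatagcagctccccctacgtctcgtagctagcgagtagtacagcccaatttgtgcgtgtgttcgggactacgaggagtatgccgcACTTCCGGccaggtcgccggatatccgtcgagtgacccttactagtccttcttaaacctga
Cox6a1: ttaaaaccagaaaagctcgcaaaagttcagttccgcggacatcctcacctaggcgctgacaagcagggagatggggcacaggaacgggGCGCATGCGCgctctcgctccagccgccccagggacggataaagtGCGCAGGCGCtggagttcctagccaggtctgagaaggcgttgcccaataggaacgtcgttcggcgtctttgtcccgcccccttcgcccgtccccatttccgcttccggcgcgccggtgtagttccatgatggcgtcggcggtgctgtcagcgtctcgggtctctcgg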

How the data were processed

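RNA sequencing of 4 libraries was read from 1 deposited table. Trim Galore, HISAT2 on mm10, HTSeq 0.11.1 for counting and DESeq2 1.26.0 for the authors' own test are named in the submitters' processing notes. The table holds raw read counts per gene and FPKM, both as the authors deposited them. No source used here gives the annotation, the strand setting or the FPKM tool.

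Symbols, positions and transcripts came from GENCODE M21 (GRCm38), which named 55480 of 55573 identifiers; 6 entries that name no gene, among them 27.7% to 29.8% of reads, were left out. The counts went into edgeR 4.0.16 (R 4.3.3): default filter, TMM scaling, and a quasi-likelihood test of group without covariates, with Benjamini-Hochberg adjustment over 15472 genes. A standard error is the log2 fold change over the square root of its F. The biological coefficient of variation was 4.82%, with 49.9 prior degrees of freedom. A p-value or standard error of 1 gene thus rests mostly on the pooled spread, not on that gene's own. On simulated data with 200 changed genes, 200 were called, and 1 unchanged gene. A call requires a fold change over the threshold, so the simulation does not show how well smaller changes are found. Of the respiratory genes past the adjusted p, all but Cox6a2 had such smaller changes. Alternatives were RLE and upper-quartile scaling, scaling without mitochondrial genes, no filter, 5 CPM in 2 libraries, DESeq2 1.42.0, limma-voom (limma 3.58.1), limma on log2(FPKM + 1), a replicate block and leaving out each library. Permutation tests used scipy 1.17.1.

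The members and gene lists were chosen with earlier results of these data known. Named genes are called members, the highest and lowest of each nuclear complex, 1 to 4 per list, and fixed core, isoform and mitochondrial genes; others were named after their values were seen. Read floors cover counting error only.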

Additional observations from a re-analysis of the deposited data

How the results depend on the processing

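Cox6a2 and Uqcrq were past the adjusted p in all 13 alternatives, and of the 29 genes past it none changed sign in any. The count of 29 was 8 with no filter (1 higher, 7 lower), 18 with DESeq2 (3 higher, 15 lower) and 11 with limma on log2(FPKM + 1) (2 higher, 9 lower), and between 6 and 22 on leaving out 1 library. The number called, 1, was 2 with no filter and with DESeq2, which added Uqcrq, and between 1 and 2 on leaving out 1 library. The nuclear median lay between -0.066 and 0.00846 on leaving out 1 library and the mitochondrial median between -0.29 and -0.19. Cox20 reversed to 0.18 with limma on FPKM. The rank correlation with gene order along the heavy strand, an alternative set added after seeing the data, kept its sign in each fit. With the replicate number as a block, 38 members were past the adjusted p (8 higher, 30 lower), but the deviations of same-numbered libraries correlated at 0.035 and no label pairs them, so the block has no basis in the design. Of 991 results of single genes under alternatives, 761 kept their direction and side of the threshold, 187 no longer passed it, 17 newly passed it, 25 without a call moved and 1 reversed. A 2 against 2 design cannot give a permutation p below 0.333. At under 2 CPM, Cox4i2 and Cox7a1 differed in mean by over 1.5-fold without passing the threshold, while Cox20, also under 2 CPM, passed it with all libraries.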

Other observations

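Nuclear genes also showed gaps between the deposited counts and FPKM. Atp5l, subunit g of ATP synthase, had an FPKM 38.6 times its RPKM from counts, and Atp5o, of the peripheral stalk, 59.5 times. The other identifier with the symbol Atp5o, ENSMUSG00000116933, had 0 reads in every library and 178 and 174 FPKM with GDC0449, against 209.6 and 196 FPKM with DMSO. Its annotated exons lie wholly within exons of Atp5o and Donson. Neither gene was past the adjusted p by counts, at 0.024 for Atp5l and -0.11 for Atp5o on the log2 scale. The cause of the gap was not tested.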
